A study of Homo sapiens with 4 samples.

Results

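The junctophilins are a family of 4 human genes, JPH1, JPH2, JPH3 and JPH4. They were followed through a comparison of RNA co-immunoprecipitated with FMRP, the RNA-binding protein that is missing in fragile X syndrome, and RNA of the starting lysate. The members were all probe sets on the array that carry the symbol of 1 junctophilin and no other gene, 9 of the 54675 probe sets in the data. JPH3 had 4 of them, JPH2 had 3, JPH1 had 2 and JPH4 had 0. The only probe set annotated to JPH4 also carries the symbol of a second gene, and JPH4 was therefore not analysed here. The family was chosen by the JPH3 signal, which stood among the largest rises of this same comparison, so the IP and lysate values of its members are given as a description and without p-values. How many fell among the calls of a fit over the whole array is given once, beside the share over all probe sets.

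HEK293 is a line from human embryonic kidney, used here as a stable Flp-In T-REx derivative with a transgene that doxycycline switches on. The 2 immunoprecipitate (IP) arrays held RNA recovered with the anti-FLAG M2 antibody from cells in which FMRP with a FLAG and HA tag had been induced by 1 µg/ml doxycycline for 16 h, washed at 300 mM KCl. The 2 lysate arrays held total RNA of the induced cells, taken before the IP. FMRP here was a tagged protein made from an induced transgene in 1 stable line, and a mock IP was not among the samples. The labels do not say whether replicates were separate cultures, so the spread between them may be technical.

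Each sample had a separate Affymetrix Human Genome U133 Plus 2.0 array. The signals were deposited per probe set on a log2 scale, with array medians of 4.67 to 4.71. Pearson's r across the 13156 genes tested, which are not independent replicates, was 0.992 between the IP arrays, 0.993 between the lysate arrays and 0.873 to 0.903 between an IP and a lysate array. Of the markers fixed for the HEK293 line, 8 of 11 had a mean signal of at least 4.70, and of those for neurons, muscle and blood 7 of 11, 5 of 15 and 1 of 7 did. Only 14 of the muscle markers and 5 of the blood markers had a probe set of their own. The values hold no detection calls, so signals near or below the array medians have no known floor, and the number of arrays limits the precision. In pooled lysates, fewer cells with an mRNA and less of that mRNA per cell cannot be told apart.

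Junctophilins tie the endoplasmic or sarcoplasmic reticulum to the plasma membrane. Their amino-terminal MORN repeats bind the plasma membrane, and a single carboxy-terminal segment anchors them in the reticulum, which brings voltage-gated calcium channels of the surface close to calcium release channels of the store. JPH1 is known mainly from skeletal muscle and JPH2 from the heart, while JPH3 and JPH4 are known from brain neurons. An expanded repeat in JPH3 causes Huntington disease-like 2. JPH1 lies on chromosome 8, JPH2 on chromosome 20, JPH3 on chromosome 16 and JPH4 on chromosome 14 (RefSeq annotation of GRCh38.p14), and all 4 are protein-coding.

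JPH3, the neuronal junctophilin, was the member with the largest difference. Its brightest probe set, 229294_at, read 10.63 and 10.95 on the IP arrays, against 8.04 and 8.26 on the lysate arrays (log2 signal). Both IP arrays lay far above both lysate arrays, and the gap between the groups was several times the gap within either group. The mean was 10.79 ± 0.23 in the IP and 8.15 ± 0.16 in the lysate (SD, n = 2 each), a difference of 2.64 or 6.24-fold. Taken alone against the lysate mean, IP replicate 1 stood 2.48 and IP replicate 2 stood 2.80 higher.

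The other JPH3 probe sets gave smaller differences at much dimmer signals. Probe set 220188_at read 5.48 and 5.62 in the IP, against 4.14 and 4.60 in the lysate, a difference of 1.18. Its IP arrays were above its lysate arrays, while the lysate arrays differed by 0.46 and lay below the array medians, so no fold is given. Probe set 243679_at read 5.07 and 5.03 in the IP, against 4.48 and 4.55 in the lysate, a difference of 0.53, again without overlap between the groups. Probe set 234736_at read 4.59 and 4.41 in the IP, against 4.17 and 4.76 in the lysate. Here the IP arrays fell between the lysate arrays, and the difference was 0.04. The JPH3 difference thus ran from 0.04 to 2.64 depending on the probe set. In these 4 it followed the order of the mean over all arrays, which high IP values themselves raise. The difference did not follow the order of the lysate means, which were 8.15 (229294_at), 4.52 (243679_at), 4.47 (234736_at) and 4.37 (220188_at).

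**Figure D1:**
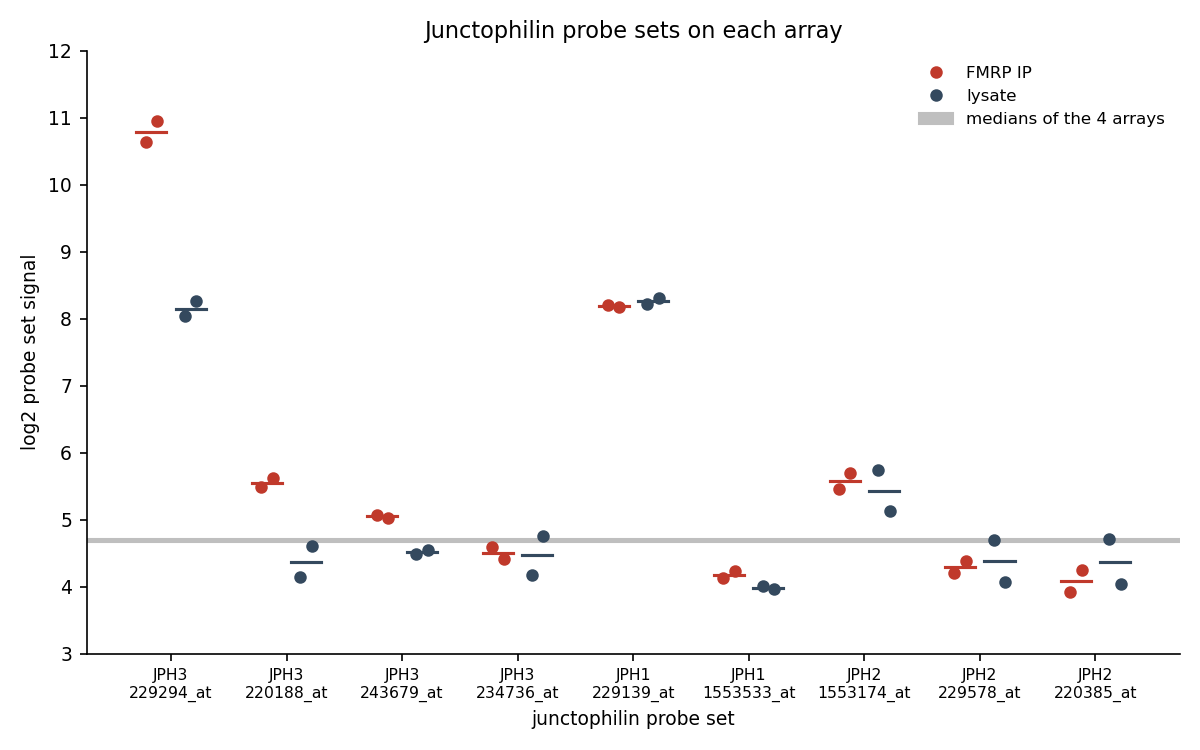
Log2 probe set signal (vertical axis) of the 9 junctophilin probe sets (horizontal axis), with 1 point per array, FMRP IP left of lysate in each pair, a bar at each group mean and a grey band at the array medians. JPH3 probe set 229294_at shows IP values of 10.63 and 10.95 above lysate values of 8.04 and 8.26, JPH1 probe set 229139_at shows both groups between 8.17 and 8.30, and the other 7 probe sets lie between 3.93 and 5.74.

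The highest and lowest JPH3 differences were 2.61 apart. The upper value is the one by which the family was chosen, so the spread is given as a description. Among the 1393 genes with 4 probe sets of their own, the median spread was 0.90, the 90th percentile was 1.80, and 16 genes had a larger spread than JPH3. JPH1, with a spread of 0.27 between its 2 probe sets, and JPH2, with 0.43 among its 3, lay below the medians of 0.38 and 0.67 for genes with as many probe sets. Probe set 229294_at was designed from a GenBank record other than the RefSeq mRNAs of JPH3, and 220188_at from one of these mRNAs. Over the family, 4 probe sets were designed from a RefSeq mRNA record and 5 from another record, and all 9 carry the suffix of the class that matches 1 gene. Which JPH3 transcript each probe set detects was not analysed here.

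**Figure D2:**
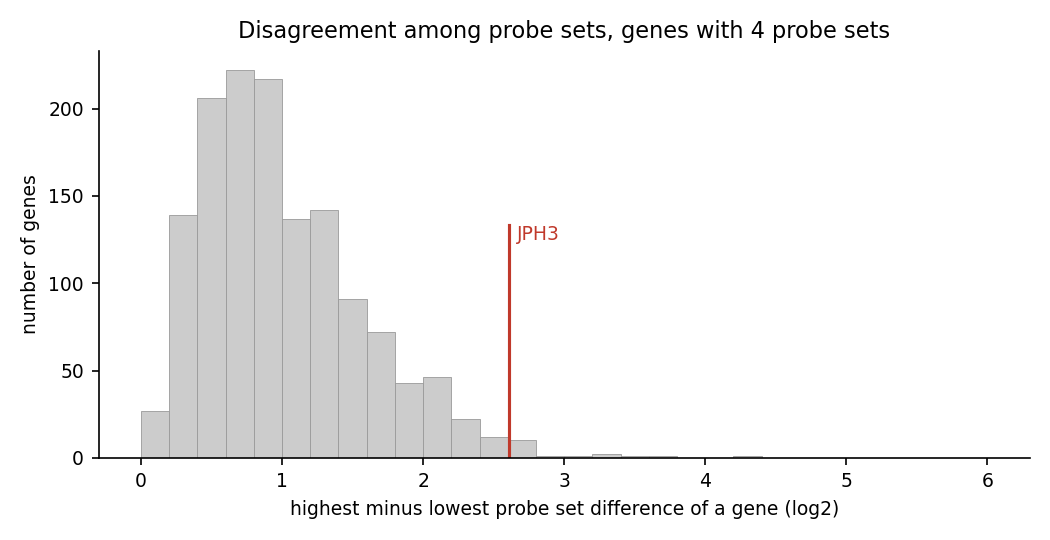
Number of genes (vertical axis) by the difference between their highest and lowest probe set value of IP minus lysate (horizontal axis, log2), for the 1393 genes with 4 probe sets of their own. The red line marks JPH3 at 2.61, beyond the 90th percentile of 1.80.

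JPH1, the skeletal muscle junctophilin, had nearly the same signal in both groups. Its brighter probe set, 229139_at, read 8.20 and 8.17 in the IP, against 8.22 and 8.30 in the lysate. The IP arrays lay just below the lysate arrays, by a difference of -0.08 between means of 8.18 ± 0.02 and 8.26 ± 0.06 (SD, n = 2 each). Its other probe set, 1553533_at, read 4.13 and 4.23 in the IP, against 4.01 and 3.96 in the lysate, a difference of 0.19 in the other direction at a signal below the array medians. The lysate signal of 229139_at was thus measured well above the low end of the arrays, as was that of JPH3 probe set 229294_at.

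JPH2, the cardiac junctophilin, had low signals in both groups. Probe set 1553174_at read 5.46 and 5.70 in the IP, against 5.74 and 5.13 in the lysate. The IP arrays fell between the lysate arrays, and the difference of 0.14 was smaller than the lysate SD of 0.44. Probe set 229578_at read 4.20 and 4.38 in the IP, against 4.70 and 4.07 in the lysate, and 220385_at read 3.93 and 4.24 in the IP, against 4.70 and 4.04 in the lysate. Their differences were -0.10 and -0.29, both with overlapping groups and both below the array medians in every mean.

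The JPH2 comparison turned on which lysate array was used. Lysate replicate 1 exceeded lysate replicate 2 by 0.62, 0.64 and 0.66 in the 3 JPH2 probe sets. Such a gap was wider than in 95.2% to 95.9% of the 3279 to 4849 probe sets whose lysate mean lay within 0.25 of theirs. Without lysate replicate 1 the difference of 1553174_at was 0.45, and without lysate replicate 2 it was -0.16. In JPH3 probe set 234736_at the same arrays differed the other way, by -0.59, and in JPH1 probe set 229139_at by -0.09. JPH3 probe set 229294_at differed by -0.23 between the lysate arrays, against 2.64 between the groups.

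Of the 9 junctophilin probe sets, 5 had a mean of at least 4.70 over the 4 arrays, the median of all values, and 4 lay below it. In a limma fit over all 54613 probe sets that are not controls, with a Benjamini-Hochberg adjusted p of at most 0.05, 3 of the 9 were called higher, where 14.5% of all probe sets were, and 0 were called lower, where 14.1% were. Both IP arrays exceeded both lysate arrays in 4 of the 9, against 34.9% of all probe sets, and lay below both in 1, against 28.6%. All 3 probe sets called higher belonged to JPH3, the gene by which the family was chosen. Since this contrast led to the choice of the family, nothing is read from these counts.

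With each gene represented by its brightest probe set, JPH3 ranked 10 of 13156 in the order of IP minus lysate, JPH2 ranked 6106 and JPH1 ranked 7694. The median over all genes was 0.08, with the 5th and 95th percentiles at -1.55 and 1.40, so JPH1 and JPH2 lay near the middle of the distribution. JPH3 stood between FBN1, the gene of the microfibril protein fibrillin (2.69), and MTOR, the gene of the nutrient-sensing kinase (2.64). Among the 2113 probe sets with a lysate mean within 0.25 of that of 229294_at, 99.9% had a smaller difference. The family was chosen by this JPH3 rise, so a high rank and a high share were fixed in advance. Both are given as a description. With the mean of its 3 probe sets of at least 4.70 in place of the brightest one, JPH3 had a difference of 1.45 and ranked 408. Of these 3, 220188_at and 243679_at had lysate means of 4.37 and 4.52 and reached 4.70 only through their IP values. The value of 1.45 thus depends on a choice that the rise itself favoured.

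**Figure D3:**
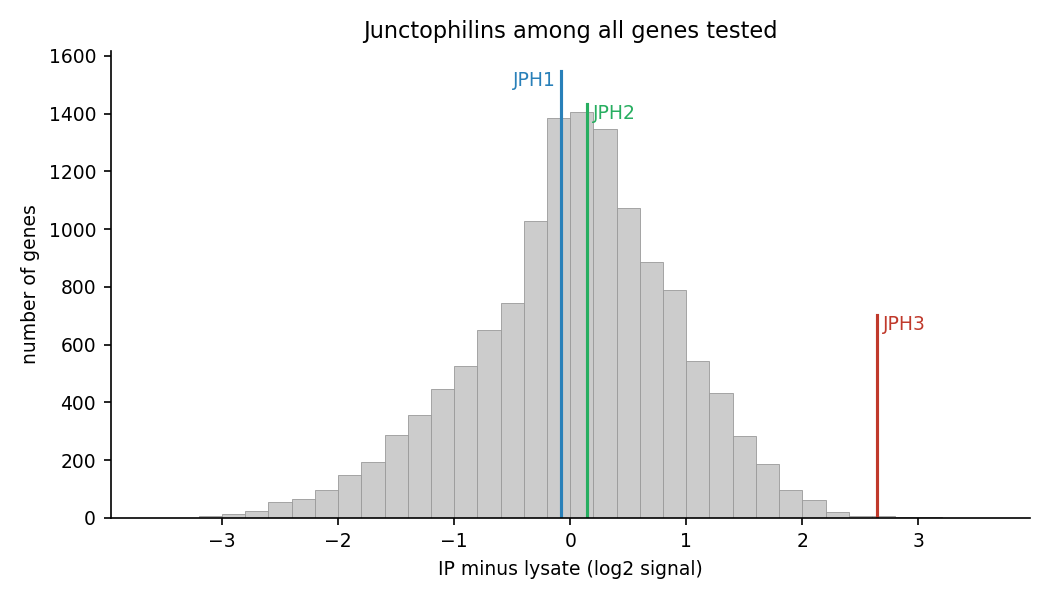
Number of genes (vertical axis) by IP minus lysate (horizontal axis, log2 signal) over the 13156 genes tested, each by its brightest probe set, with lines at JPH1 (-0.08), JPH2 (0.14) and JPH3 (2.64). The heights of the lines carry no value, and JPH3 lies beyond the 95th percentile of 1.40.

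The scale of the arrays set the sign of the smaller differences. When each array was centred on its hybridization controls, which were 0.48 higher on the IP arrays, the median over all genes became -0.40. JPH3 probe sets 229294_at and 220188_at were then 2.16 and 0.70 higher in the IP, 243679_at stood at 0.05 and 234736_at at -0.44. JPH1 probe sets 229139_at and 1553533_at stood at -0.56 and -0.29. The 3 JPH2 probe sets lay between -0.77 and -0.34, so that the sign of 1553174_at turned. This centring moves every difference by the same amount and leaves the order of the genes as it was.

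The genes whose 4 array values, each set against the gene's own mean, were most like those of JPH3 were MTOR, MCAM, PTPRB and CDK5RAP2. MCAM encodes a cell adhesion molecule, PTPRB a receptor tyrosine phosphatase and CDK5RAP2 a centrosomal protein. Their root mean square distances from JPH3 over the 4 arrays were 0.06, 0.09, 0.10 and 0.11 (log2). MTOR read 9.34 and 9.49 in the IP, against 6.64 and 6.92 in the lysate. PTPRB read 6.43 and 6.52 in the IP, against 3.71 and 3.81 in the lysate, where its signal lay below the array medians. In JPH3 and in all of these 4 genes, IP replicate 2 was the highest array and lysate replicate 1 the lowest. Their choice by likeness to JPH3 favoured this shared order, so nothing is read from it. The genes most like JPH1 were SALL2, ADRB3, OLIG2 and EPCAM, at distances of 0.0045 to 0.0097, and those most like JPH2 were CRYGD, VIPR2, GPRC5D and SLC9A9, at 0.036 to 0.058. The likeness is over 4 arrays in 2 groups and is a description.

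**Figure D4:**
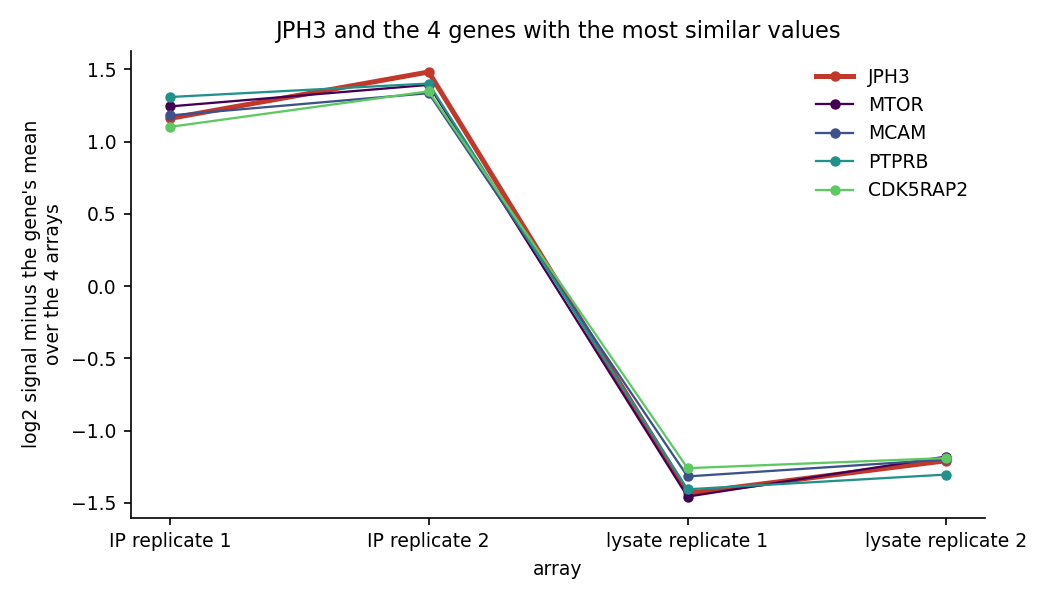
Log2 signal minus each gene's mean over the 4 arrays (vertical axis) for JPH3 and the 4 genes most like it, on the IP arrays (left) and lysate arrays (right); lines join the values of a gene. All 5 genes lie above their mean on both IP arrays and below it on both lysate arrays, which follows from the choice by likeness to JPH3.

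The genes that work with junctophilins at membrane contacts, or resemble them, were taken from 9 lists with 131 genes in all. Of these, 117 had a probe set of their own and 95 passed the filter on low values, a mean of at least 4.70. By limma over all 13156 genes, at an adjusted p of at most 0.05, 42 of the 95 were called higher in IP RNA and 20 were called lower, against 35.0% and 28.8% of all genes tested. In 5 of the 95, the mean of 1 group was below 4.70. CACNA1D, KCNB2, MTM1 and PITPNM3, all called higher, had that mean in the lysate and passed the filter only through their IP values. DYSF, called lower, had it in the IP and passed only through its lysate values. MTM1, PITPNM3 and DYSF are named here after their values were seen. The lists were chosen with earlier results of these data known. Their calls and p-values are therefore no independent support for the JPH3 rise.

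The calcium release channels of the store were higher in all 4 genes that passed the filter, by their brightest probe set. Their median was 1.76 against 0.08 over all genes. RYR2, the cardiac ryanodine receptor, read 9.63 and 9.42 in the IP, against 7.18 and 7.09 in the lysate, a 5.25-fold rise (limma adjusted p = 3.45e-05). The inositol trisphosphate receptor genes ITPR3 and ITPR2 rose by 1.91 and 1.60 on the log2 scale, but 2 other ITPR3 probe sets stood at 0.03 and 0.19 and 1 other ITPR2 probe set at 0.09. The fourth gene was ITPR1 at 1.56, named after its value was seen, with other probe sets at -0.55, -0.03, 0.91 and 1.52. RYR1 and RYR3 did not pass the filter.

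Of 11 voltage-gated calcium channel subunit genes, which encode the surface partners, 5 were higher, 1 was lower and 5 were not called, with a median of 0.31 that was 0.16 without lysate replicate 1 and 0.52 without lysate replicate 2. CACNA1D, a pore subunit gene, differed by 1.66 from a lysate mean of 4.20 below the array medians, CACNA2D3 by 1.51 and CACNB3 by 1.09, with the other CACNB3 probe set at -0.04 and a mean of both of 0.52. CACNA1A, the pore subunit gene of P/Q-type channels, differed by -0.63 (limma adjusted p = 0.0331; 0.0938 with no filter on low values), while its 4 other probe sets stood between 0.10 and 0.64. Its call was lost when lysate replicate 2 (-0.28) or IP replicate 2 (-0.56) was left out, and the difference was -0.97 without lysate replicate 1.

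Of 18 genes for other triad and dyad proteins, 6 rose and 4 fell. The median was -0.10, between -0.16 without IP replicate 2 and -0.04 without IP replicate 1, and 0.25 over the genes with a mean of at least 6. The sarco-endoplasmic reticulum pump gene ATP2A3, the T-tubule membrane-shaping gene BIN1 and TCAP differed by 0.86, 0.73 and 0.71, the last being 0.42 without lysate replicate 2. The ryanodine receptor-binding FKBP genes FKBP1A and FKBP1B differed by -1.90 and -1.08, and SYPL2, encoding mitsugumin 29, by -1.14.

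Store-operated calcium entry, the refilling route across the same contacts, had 5 of 12 genes higher and 3 lower, with a median of 0.20. The store sensor gene STIM1 rose 2.39-fold (limma adjusted p = 7.24e-05), with its other probe set at -0.44. The channel gene ORAI2 differed by 1.25 and STIMATE by 0.80, while ORAI1, ORAI3 and the regulator gene SARAF differed by -0.69, -0.70 and -0.50. ORAI2 probe sets of the class that matches 1 gene stood at 1.98 (the brightest), 1.89, 0.82 and -0.08. When lysate replicate 2 or IP replicate 1 was left out, 3 of the 12 were called higher, and SARAF was not called without lysate replicate 1 (-0.42).

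Of 19 genes for other tethers between the endoplasmic reticulum and the plasma membrane, 10 rose and 3 fell, and the median was 0.38. ESYT1, encoding an extended synaptotagmin, differed by 1.41, the lipid transfer protein gene OSBPL5 by 1.31 and the potassium channel gene KCNB2 by 1.30, from a lysate mean of 4.54 below the array medians. OSBPL3, OSBPL8 and VAPB differed by -0.71, -0.56 and -0.51. The other OSBPL3 probe set stood at 0.60, and OSBPL8 was not called without lysate replicate 1 (-0.45). KCNN1, the only small-conductance potassium channel gene that passed the filter, differed by 0.45 and was not called without lysate replicate 2 (0.31) or with no filter (limma adjusted p = 0.0595).

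Among the calpains, a protease family whose members can cleave junctophilins in muscle, and their inhibitor calpastatin, 6 of 8 genes were higher and 1 was lower, with a median of 0.61. CAPN15, CAPN10 and CAST differed by 1.16, 0.78 and 0.71, the other CAPN15 probe set stood at 0.04, and the means of the kept probe sets were 0.60 for CAPN15 and 1.09 for CAST. The median of the list was 0.36 with such means. In the other direction, the small regulatory subunit gene CAPNS1 differed by -1.73. Of 7 other genes with MORN repeats, 1 was higher and 3 were lower, with a median of -0.21 that was -0.08 without lysate replicate 1 and -0.34 without lysate replicate 2. ANKMY1 differed by 0.62, MORN2 by -1.49, SETD7 by -1.05 and MORN4 by -0.47 (-0.98 as the mean of its probe sets). Of 15 other genes of repeat expansion disorders, the class to which JPH3 belongs, 4 rose and 5 fell, and the median was -0.31. With probe sets of the class that matches 1 gene, 9 genes were left, of which limma called 2, both lower. HTT, the Huntington disease gene, rose 2.88-fold (limma adjusted p = 3.74e-05), with its other probe set at 1.48. RFC1 and DMPK differed by 0.89 and 0.67 (0.35 for DMPK as the mean of its probe sets), and C9orf72, CNBP and ATXN2 by -1.10, -1.03 and -0.77.

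Of the lists with more than 1 gene past the filter, only the calcium release channels had every such gene called. With no filter, 4 of the 6 genes of that list were called. None of the lists was tested as a set. With hybridization control centring, 17 of the 95 genes were higher and 43 lower, against 2089 and 6385 of all 13156 genes tested. The calcium release channels were the list in which all measured genes were still called higher, with a median of 1.28. On that scale, which takes the same amount from every gene and puts the median of all genes at -0.40, the medians of the voltage-gated channel, store-operated entry and tether lists were -0.17, -0.28 and -0.10. The calpain and calpastatin list then had a median of 0.13, with 1 gene called higher and 2 called lower. Probe sets of the classes that can match more than 1 gene represented RYR2, ITPR3, CACNA2D3, CACNA1A, ATP2A3, BIN1, FKBP1B, ORAI2, SARAF, ESYT1, VAPB, OSBPL3, CAPN10, HTT, RFC1, DMPK, ATXN2, CNBP and C9orf72.

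**Figure D5:**
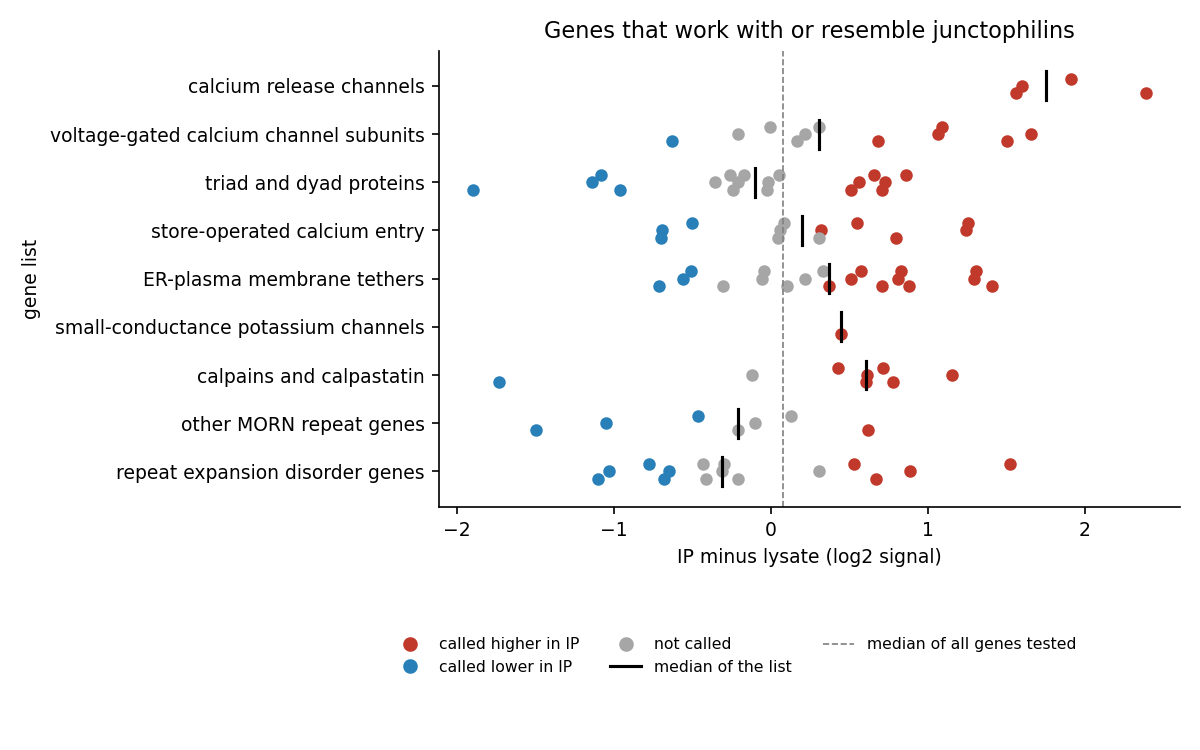
IP minus lysate (horizontal axis, log2 signal) of the measured genes of each list (vertical axis), with 1 point per gene coloured by its limma call, a black bar at the median of the list and a dashed line at the median of all genes tested (0.08). All 4 calcium release channel genes lie between 1.56 and 2.39, and of the other lists with more than 1 gene measured, each holds points on both sides of 0.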

How the data were processed

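The authors hybridized RNA to Affymetrix Human Genome U133 Plus 2.0 arrays after biotin labelling of 2 µg, per the labels' protocols, and deposited a log2 signal for each probe set (values of 1.68 to 13.98, from which the scale was taken). How they corrected, summarized and normalized the signals is not stated in the labels or the file. The 54675 probe sets comprise 62 controls, 41091 with a single gene symbol, 1801 with several and 11721 with none, and 41037 were matched by Entrez number to the GRCh38.p14 table.

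The difference between IP and lysate was tested with limma 3.58.1 under R 4.3.3 (lmFit, eBayes, no covariate, 2 residual and 5.50 prior degrees of freedom), two-sided, over 13156 genes (1 symbol, mean at least 4.70, brightest probe set) and over 54613 probe sets without a filter. The fit was also run on simulated arrays with independent noise and few changed genes. These data differ in that many genes were called, so that run does not test the calls made here. Alternatives covered normalization, filter, probe set choice, the replicate number as a block, spread, threshold and left-out arrays.

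The members and lists were chosen with earlier results of these data known. Named were the junctophilins, the neighbours of JPH3 in rank, the 4 genes most like each member, and per list the called genes with the 3 largest rises and falls. A comparison of the members' proteins was planned and not run. Figures used matplotlib 3.10.9.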

Additional observations from a re-analysis of the deposited data

How the results depend on the processing

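The hybridization control scale was the setting that moved most values. With it, 2089 genes were higher and 6385 lower, so that 24.7% of the calls were rises against 54.9% on the deposited scale, and 17 of the genes in the 9 lists were higher and 43 lower, or 28.3% rises against 67.7%. JPH1, JPH2 and JPH3 then stood at -0.56, -0.34 and 2.16, and KCNN1 turned to -0.030. With quantile normalization JPH1 stood at -0.12. With the mean of a gene's kept probe sets JPH3 stood at 1.45 and ranked 408. Probe sets of the class that matches 1 gene left 9968 genes to test, of which 3358 were higher. Among them, 26 genes of the lists were higher, or 65% of the calls in the lists, against 54.0% of the calls over all genes. With 1 array left out, the JPH3 difference ran from 2.48 to 2.80 and its rank from 7 to 13, that of JPH2 from -0.16 to 0.45, and that of JPH1 from -0.12 to -0.03. Over the same fits, 4006 to 4448 genes were higher and 3385 to 3624 lower. Except for the scale, the cause of these shifts was not tested. Same-numbered IP and lysate arrays share only a number in the labels, and their deviations correlated at 0.10 across genes; the replicate block gave 4729 higher and 3868 lower genes and left the JPH3 difference at 2.64. Of the 40 genes of the lists named by rule, ANKMY1, BIN1, CAPN10, CAST, DMPK, RFC1, STIMATE and TCAP lost their call on the hybridization control scale, OSBPL3 (-0.06) and VAPB (-0.32) with the mean of probe sets, DMPK (0.14) with probe sets of the class that matches 1 gene, CACNA1A and KCNN1 with no filter, and these and TCAP at an adjusted p of 0.01. With 1 array left out, CACNA1A, KCNN1, OSBPL8 and SARAF lost theirs. Signals near the array medians, which include 7 of the 9 junctophilin probe sets, have no known floor.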
